A study of Mus musculus with 9 samples.

Results

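The transcripts described here encode 7 transcription factors of the STAT and IRF families: Stat2, Stat3, Stat6, Irf1, Irf3, Irf7 and Irf9. They were chosen by name, with earlier results of these data known. All 7 of the 7 had a row among the 12125 genes of the deposited count table. RNA was sequenced from TC2R cells, a mouse prostate adenocarcinoma line of C57/BL6 background derived from TRAMP-C2 cells. Every group carried the same lentiviral transgenes, activated H-ras among them, and all cells were transfected with 1.5 µg of plasmid per well for 6 h and collected 24 h after transfection began. The 3 groups of 3 libraries differed in the plasmid. Plasmid control received the expression vector without an insert, IL27_scr received IL-27 carrying a control peptide at its C-terminus, and IL27_pepL received IL-27 carrying the pepL peptide, which targets the alpha chain of the IL-6 receptor. The share of cells that took up plasmid is not given in the sources used here.

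STAT proteins wait in the cytoplasm until Janus kinases at a cytokine receptor phosphorylate them, after which they pair, enter the nucleus and bind DNA. STAT2 and IRF9 belong to the ISGF3 complex, which binds interferon-stimulated response elements after type I interferon, and STAT3 and STAT6 are the main STATs of the IL-6 and IL-4 families of cytokines. IRF3 is present in resting cells and is activated by kinases downstream of nucleic acid sensors, IRF7 is the interferon-inducible amplifier of that response, and IRF1 drives antigen presentation genes after interferon gamma. IL-27 itself signals through Il27ra and Il6st (gp130), mainly to STAT3 and to interferon-type STAT complexes.

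Total counts per library ranged from 27609884 to 35959983. The transgene chains set plasmid control apart from the groups with IL-27. Il27 had 0 to 1 counts in plasmid control, 179 to 244 in IL27_scr and 237 to 252 in IL27_pepL. Ebi3 had 0 to 2, 266 to 269 and 314 to 419 in the same order. Both IL-27 groups express these chains, so which peptide a library carried was not checked. Within groups every pair of libraries differed beyond counting noise (chi-square over its degrees of freedom, 3.04 to 32.8), and the widest pair was IL27_pepL replicates 1 and 3. The labels do not say that replicates were separate cultures, so p-values measure only the spread between these libraries, which may be technical. Few markers of the labelled prostate identity were measured. Of 14 prostate epithelial markers 4 had a row, with Krt8 at 1.68 to 2.51 CPM (read counts scaled to library size), Krt19 at 4.18 to 6.07 and Cdh1 at 0.267 to 0.761, and Epcam and Krt18 had none. All 12 of 12 mesenchymal markers had a row, from Vim, the highest, at 2730 to 3390 CPM to Thy1, the lowest, at 3.55 to 4.92. Acta2 (6.24 to 9.83 CPM) and Tagln (5.05 to 8.05) were also low. Of 10 lymphoid markers 0 had a row, and of 12 myeloid markers 3 did, with none for Ptprc.

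Of the 7 genes, Irf7, Stat2 and Irf9 were higher in IL27_pepL than in IL27_scr, and Irf7 was also higher in IL27_pepL than in plasmid control. Irf7 had the widest difference between the IL-27 forms, with a fold of 2.09 (95% interval 1.74 to 2.52, n = 3 libraries per group). Stat3, Stat6, Irf1 and Irf3 did not pass the test in any comparison, and their intervals between the IL-27 forms lay within 0.861 and 1.15 fold. A gene passed where the adjusted p was under 0.05. Between the IL-27 forms 3 of the 7 passed, all upward, where 2.52% of all genes were called and 1.09% upward. In IL27_pepL against plasmid control 1 of 7 passed, upward, where 1.62% of all genes were called and 0.429% upward. In IL27_scr against plasmid control 0 of 7 passed by edgeR, DESeq2 or limma-voom, where 0.0247% of all genes were called by edgeR, and 2 of the 7 (Irf7 and Stat2) had an unadjusted p under 0.05, as did 312 of the 12125 genes. In bulk RNA of this kind, a change in the number of cells that express a gene and a change in RNA per cell cannot be told apart.

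The promoters of Irf7, Stat2 and Irf9 are shown because these factors rose together, and that of Irf1 because it held a GAS match and the gene did not pass. They are the 250 bases before an annotated start, taken from RefSeq (GRCm38.p6, the mm10 build), which matched 7 of the 7 genes in 9 windows. The RefSeq starts of Irf7 and Irf9 used here lie inside the longer GENCODE gene bounds given with each gene. Capitals mark matches to an interferon-stimulated response element core (GAAANNGAAA), to a gamma-activated site (GAS, TTCNNNGAA) or to the wider-spaced site preferred by STAT6 (TTCNNNNGAA), searched on both strands.

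Irf7, chr7:141266425-141266674, minus strand: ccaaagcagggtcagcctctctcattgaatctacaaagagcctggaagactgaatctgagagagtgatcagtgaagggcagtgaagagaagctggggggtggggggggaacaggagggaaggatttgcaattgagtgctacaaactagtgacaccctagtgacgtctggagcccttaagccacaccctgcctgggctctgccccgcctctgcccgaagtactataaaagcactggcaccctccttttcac

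Stat2, chr10:128270248-128270497, plus strand: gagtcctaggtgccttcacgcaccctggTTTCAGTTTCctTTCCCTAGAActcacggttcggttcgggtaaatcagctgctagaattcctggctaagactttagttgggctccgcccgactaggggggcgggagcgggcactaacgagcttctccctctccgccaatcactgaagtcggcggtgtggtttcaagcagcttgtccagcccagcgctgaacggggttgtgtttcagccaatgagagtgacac

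Irf9, chr14:55603735-55603984, plus strand: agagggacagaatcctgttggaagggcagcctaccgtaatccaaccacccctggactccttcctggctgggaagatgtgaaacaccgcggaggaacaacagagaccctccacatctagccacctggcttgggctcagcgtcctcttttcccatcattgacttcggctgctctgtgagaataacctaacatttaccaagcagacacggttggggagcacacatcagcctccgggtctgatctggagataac

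Irf1, chr11:53769764-53770013, plus strand: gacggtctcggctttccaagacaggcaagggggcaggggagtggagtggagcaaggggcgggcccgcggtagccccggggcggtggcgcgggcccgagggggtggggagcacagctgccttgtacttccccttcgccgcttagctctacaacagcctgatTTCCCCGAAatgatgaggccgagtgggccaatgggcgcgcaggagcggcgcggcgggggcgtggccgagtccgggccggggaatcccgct

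The Stat2 window held a response element core on the minus strand, 222 to 213 bases before the start, followed by a STAT6-type site 210 to 201 bases before the start. The Irf1 window held a GAS at 90 to 82 bases before the start. The letters of the 3 motifs were absent from the Irf7 window, from both Irf9 windows, from the other Irf1 window and from those of Irf3, Stat3 and Stat6. Among 32851 mouse promoter windows of the same 250 bases, 2.98% held the response element core, 7.02% the GAS and 5.85% the STAT6-type site. The Irf1 window was also the richest in G and C of those printed (71.2%, with 25 CpG dinucleotides), against 54.4% and 3 CpG for Irf7. A match is a description of the letters and was not tested for binding.

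CPM per kilobase of merged exons, which allow levels to be compared between genes, placed Stat6 first in plasmid control cells (mean 27.3, range 26.2 to 27.9, n = 3). Irf9 (14.6, range 14.3 to 15.1), Stat3 (13.3, 12.9 to 13.6), Irf1 (12.1, 11 to 12.8) and Irf3 (11.8, 11.4 to 12.5) formed a middle tier at this length-scaled level. Irf7 (6.79, 5.74 to 8.14) and Stat2 (6.21, 5.19 to 6.93) were lowest. The gaps after Stat6 and before Irf7 were wider than the spread between libraries, whereas Irf1 with Irf3, and Irf7 with Stat2, overlapped. The order in the middle depends on the length used: per kilobase of the longest transcript, Irf1 stood at 18.9 and Irf9 at 11.7. In IL27_pepL, Irf7 reached 10.8 (9.15 to 12), which overlapped Irf1 (10.8 to 12.3) and Irf3 (11.1 to 13.8). That overlap also depends on the length: per kilobase of the longest transcript, the IL27_pepL libraries held Irf7 at 6.76 to 8.87, below Irf1 (16.8 to 19.1) and Irf3 (12 to 14.9).

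**Figure D1:**
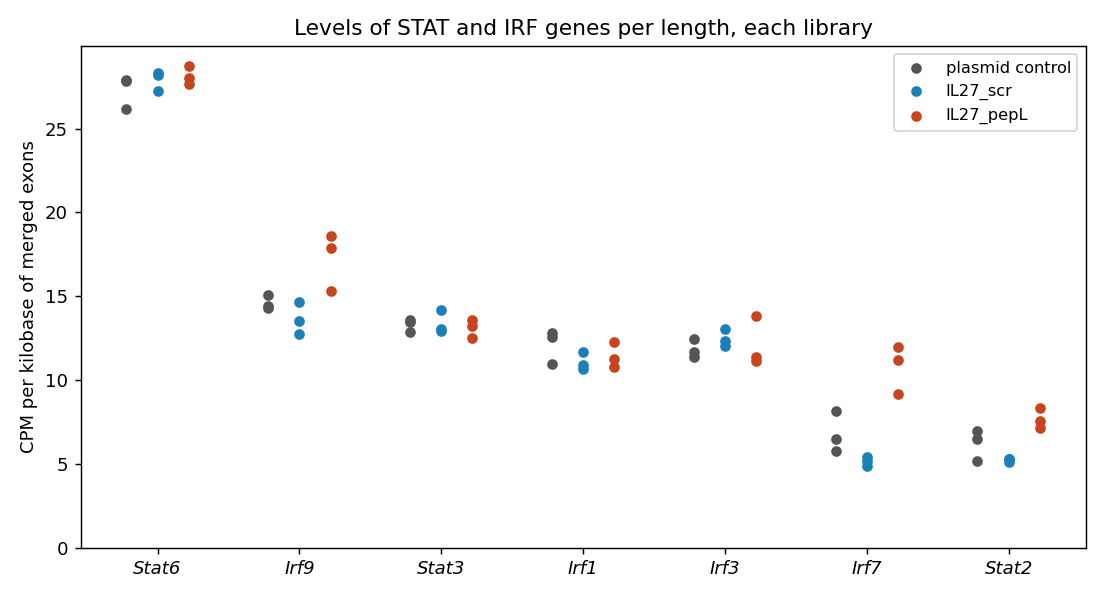
Level of each gene in CPM per kilobase of merged exons, 1 point per library, for plasmid control (grey), IL27_scr (blue) and IL27_pepL (orange). Stat6 lies at 26.2 or above in every library, Irf7 moves from 4.86 to 5.44 in IL27_scr up to 9.15 to 12 in IL27_pepL, and Stat3 stays between 12.5 and 14.2.

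Irf7, on chromosome 7 from 141262706 to 141266481 (minus strand, mm10), is the interferon-induced factor that amplifies type I interferon transcription. Its levels were 19.5, 13.7 and 15.5 CPM in plasmid control, 11.6, 12.4 and 13.0 CPM in IL27_scr, and 21.9, 28.7 and 26.9 CPM in IL27_pepL. The 3 groups did not overlap for this gene: every IL27_scr library was lowest, every plasmid control library intermediate and every IL27_pepL library highest. Means were 16.2 ± 2.94, 12.3 ± 0.694 and 25.8 ± 3.53 CPM (SD, n = 3), so the relative spread was widest in plasmid control (coefficient of variation 18.1%) and narrowest in IL27_scr (5.63%). Raw counts behind these values ran from 395 to 967.

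Between the IL-27 forms, the log2 fold change of Irf7 was 1.07 ± 0.12 (SE, adjusted p = 0.00139, quasi-likelihood test of edgeR, Benjamini-Hochberg adjustment over all genes). It had rank 8 by p among all genes in that comparison. Against plasmid control the log2 fold change in IL27_pepL was 0.66 ± 0.12, a fold of 1.58 (1.32 to 1.90, adjusted p = 0.0199). In IL27_scr the log2 difference from plasmid control was -0.41 ± 0.13, a fold of 0.755, with an unadjusted p of 0.00735 and an adjusted p of 0.999. The last value did not pass although the libraries were separated. The call against plasmid control was lost without plasmid control replicate 2 (adjusted p = 0.104), without plasmid control replicate 3 (0.0735) and without IL27_pepL replicate 2 (0.0855), with log2 values from 0.55 to 0.82 over single omissions, whereas the call between the IL-27 forms held in each omission.

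Stat2, on chromosome 10 from 128270559 to 128292849 (plus strand), encodes the STAT that is specific to type I and III interferon signalling. It stood at 30.5, 22.8 and 28.6 CPM in plasmid control, at 23.3, 22.4 and 23.2 CPM in IL27_scr and at 33.2, 36.5 and 31.3 CPM in IL27_pepL. All IL27_pepL libraries were above all others, and plasmid control replicate 2 lay among the IL27_scr libraries. The log2 fold change between the IL-27 forms was 0.55 ± 0.09, a fold of 1.47 (1.28 to 1.69, adjusted p = 0.00947). Against plasmid control the IL27_pepL value was 0.30 ± 0.09 (fold 1.23, adjusted p = 0.0976), which did not pass. In IL27_scr it was -0.25 ± 0.09 (unadjusted p = 0.0189, adjusted p = 0.999). The call between the IL-27 forms was lost without IL27_scr replicate 2 (adjusted p = 0.0559) and without IL27_pepL replicate 2 (0.0529).

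Irf9, on chromosome 14 from 55603571 to 55610030 (plus strand), encodes the DNA-binding partner of the STATs in ISGF3. Its levels were 46.8, 44.3 and 44.6 CPM in plasmid control, 39.5, 45.4 and 41.9 CPM in IL27_scr and 47.5, 57.6 and 55.5 CPM in IL27_pepL. The IL27_pepL libraries lay above the rest, with replicate 1 only just above plasmid control replicate 1, and the other groups overlapped. Between the IL-27 forms the log2 fold change was 0.34 ± 0.07, a fold of 1.27 (1.13 to 1.41, adjusted p = 0.0295). Against plasmid control it was 0.24 ± 0.07 in IL27_pepL (fold 1.18, adjusted p = 0.0973) and -0.10 ± 0.07 in IL27_scr (adjusted p = 0.999). The call between the IL-27 forms was the least secure of the 3. It was lost in 7 of 9 single omissions, which were plasmid control replicates 1 and 3, each IL27_scr replicate and IL27_pepL replicates 2 and 3, with an adjusted p of up to 0.143 and log2 values from 0.28 to 0.42.

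**Figure D2:**
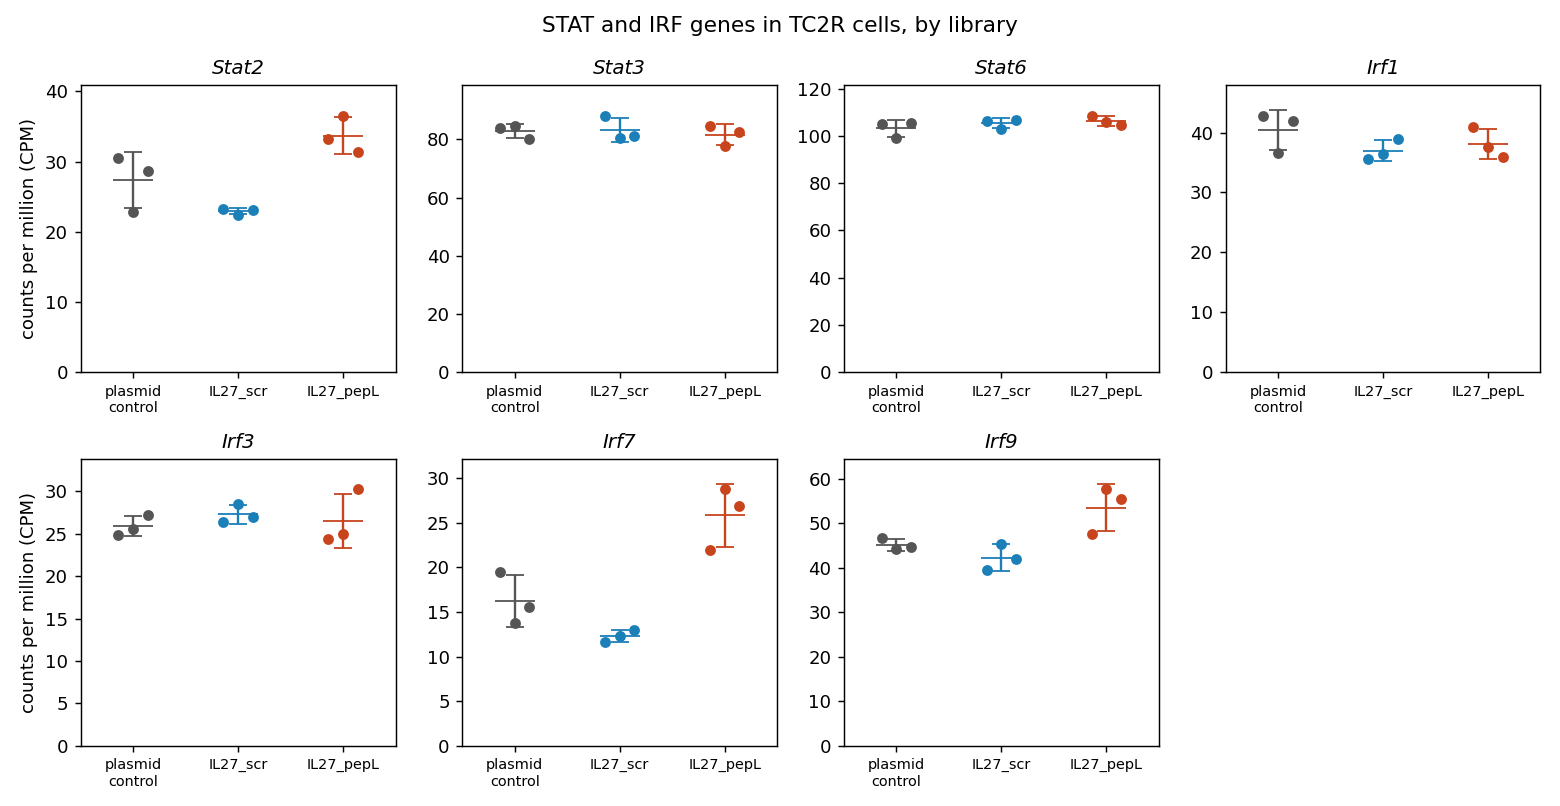
CPM of each gene in every library, with the mean and SD of each group of 3 as horizontal lines and bars, and each axis starting at 0. Irf7, Stat2 and Irf9 are higher in all IL27_pepL libraries than in any other library, while the groups overlap for Stat3, Stat6, Irf1 and Irf3.

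Irf3, on chromosome 7 from 44997648 to 45002848 (plus strand), encodes the factor that nucleic acid sensors activate without new synthesis. It stood at 24.9, 25.6 and 27.3 CPM in plasmid control, 26.3, 28.5 and 27.0 CPM in IL27_scr and 24.4, 25.0 and 30.2 CPM in IL27_pepL. The groups overlapped, and the highest library was IL27_pepL replicate 3. The log2 difference between the IL-27 forms was -0.04 ± 0.08 (fold between 0.861 and 1.09, adjusted p = 0.785). Scaled by merged exon length, the ratio of Irf7 to Irf3 was 0.576 ± 0.122 in plasmid control, 0.414 ± 0.024 in IL27_scr and 0.895 ± 0.135 in IL27_pepL (SD, n = 3). The highest ratio was 1.05, in IL27_pepL replicate 2. Which of the pair is higher there depends on the length, since per kilobase of the longest transcript Irf7 was 8.87 and Irf3 12.3 in that library.

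Irf1, on chromosome 11 from 53770014 to 53778374 (plus strand), is induced early after interferon gamma. It was measured at 42.8, 36.6 and 41.9 CPM in plasmid control, 35.5, 36.4 and 38.9 CPM in IL27_scr and 40.9, 37.5 and 35.9 CPM in IL27_pepL. No group stood apart. Its log2 differences were -0.13 ± 0.07 for IL27_scr and -0.08 ± 0.07 for IL27_pepL against plasmid control, and 0.05 ± 0.07 between the IL-27 forms (fold between 0.928 and 1.15, adjusted p = 0.731).

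Stat3, on chromosome 11 from 100885098 to 100939540 (minus strand), encodes the main STAT of gp130 receptors. Its levels were 84.0, 84.5 and 80.1 CPM in plasmid control, 88.2, 80.5 and 81.2 CPM in IL27_scr and 84.7, 77.8 and 82.4 CPM in IL27_pepL. The means of 82.9 ± 2.41, 83.3 ± 4.27 and 81.7 ± 3.53 CPM differed by less than the spread within groups. The log2 difference between the IL-27 forms was -0.03 ± 0.05, which places the fold between 0.906 and 1.06 (adjusted p = 0.785). Transcript level says nothing of phosphorylation, which was not measured here.

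Stat6, on chromosome 10 from 127642986 to 127660957 (plus strand), encodes the STAT of IL-4 and IL-13. It stood at 105, 98.9 and 105 CPM in plasmid control, 106, 103 and 107 CPM in IL27_scr and 109, 106 and 104 CPM in IL27_pepL. The groups overlapped throughout. The log2 difference between the IL-27 forms was 0.01 ± 0.04 (fold between 0.944 and 1.08, adjusted p = 0.898), the tightest interval among the 7 genes.

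Some exons are shared with neighbours, and the strand setting of the counting is not given in the sources used here. Irf9 shares 123 exonic bases with Rnf31 on the same strand. On the opposite strand Stat3 shares 72 bases with Stat5a, Irf7 shares 45 with Phrf1, Stat6 shares 40 with Nab2, Irf3 shares 8 with Bcl2l12 and Irf1 shares 100 with Gm17334. Reads from the opposite-strand stretches cannot be told apart without strand, and those shared with Rnf31 cannot be told apart by strand at all. These stretches make up a small part of merged exon lengths of 2189 to 6228 bases. Stat2 shares none.

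The median log2 difference of the 7 genes was -0.10, 0.04 and 0.05 in the comparisons of IL27_scr with plasmid control, IL27_pepL with plasmid control and IL27_pepL with IL27_scr, beside -0.00261, 0.00226 and 0.00365 for all genes. Groups that did not overlap were found for 1, 3 and 3 of the 7 genes in the same order, and for 10.0%, 24.0% and 26.0% of all genes. These comparisons share libraries, so their values are set side by side and not as independent support.

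**Figure D3:**
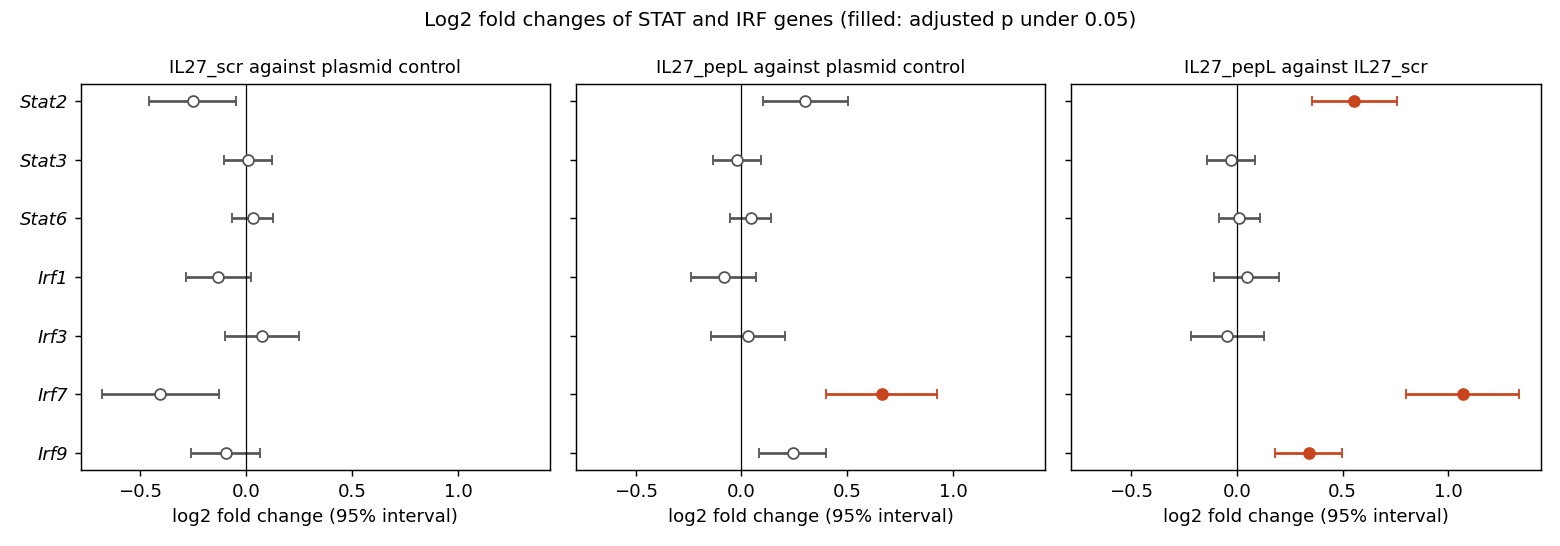
Log2 fold changes of the 7 genes in the 3 comparisons with 95% intervals from edgeR's fit, filled where the adjusted p was under 0.05. Irf7 is filled in both IL27_pepL comparisons at 0.66 and 1.07, Stat2 and Irf9 are filled between the IL-27 forms at 0.55 and 0.34, and the intervals of Stat3, Stat6, Irf1 and Irf3 cross 0 in every panel.

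Of 9 other STAT and IRF genes, 5 had a row, and Stat4, Irf4 and Irf8 were among those without. By edgeR 0 of 5 passed in any comparison. At an unadjusted p under 0.05 the counts were 0 in IL27_scr and 3 in IL27_pepL against plasmid control and 2 between the IL-27 forms. Over all 12125 genes 312, 2784 and 2823 reached that threshold in the same order. Limma-voom called 0 in each comparison, and DESeq2 called 0, 1 and 1. Against plasmid control their log2 differences spanned -0.09 to -0.05 in IL27_scr. In IL27_pepL they spanned -0.11 to 0.34, and between the IL-27 forms -0.02 to 0.41. Irf5, a factor of myeloid inflammatory responses, had the highest value between the IL-27 forms, 0.41 ± 0.13 (adjusted p = 0.0981).

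Upstream of the factors, 1 of 18 receptor and Janus kinase genes passed by edgeR in the 3 comparisons together. Il11ra1, the alpha chain of the IL-11 receptor, was higher in IL27_pepL than in IL27_scr by 0.35 ± 0.08 on the log2 scale (adjusted p = 0.0434), a call that was lost in 8 of 9 single omissions with an adjusted p of up to 0.141. Of 21 kinases, sensors and adaptors that act on IRF3 and IRF7, 3 rose between the IL-27 forms and 1 against plasmid control. Beside this and the receptor list, 2.52% of all genes were called between the IL-27 forms and 1.62% in IL27_pepL against plasmid control. Zbp1, a sensor of Z-form nucleic acid, rose by 0.61 ± 0.11 and 0.58 ± 0.11 on the log2 scale (adjusted p = 0.0112 and 0.0205). The RNA sensor Ddx58 (RIG-I) rose by 0.43 ± 0.07 (adjusted p = 0.00888) and its relative Dhx58 by 0.45 ± 0.10 (adjusted p = 0.0258) between the IL-27 forms. With 1 library left out, the adjusted p between the IL-27 forms reached 0.061 for Zbp1, 0.0532 for Ddx58 and 0.124 for Dhx58, and 0 of the 3 genes passed without IL27_scr replicate 1. The Zbp1 call against plasmid control was lost without plasmid control replicate 1, plasmid control replicate 2 or IL27_pepL replicate 2 (adjusted p of up to 0.119).

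Among 12 measured partners and corepressors of STATs and IRFs, of 13 listed, 1 passed. Over all genes 2.52% were called between the IL-27 forms and 1.62% in IL27_pepL against plasmid control. Ifi35, an interferon-induced leucine zipper protein, rose by 0.53 ± 0.09 between the IL-27 forms (log2, adjusted p = 0.0121, up to 0.0659 with 1 library left out). Of 18 inhibitors of STAT signalling, 2 rose between the IL-27 forms, 1 of them Isg15, a ubiquitin-like modifier, by 0.62 ± 0.11 (adjusted p = 0.0121). That call was lost without IL27_scr replicate 1 or IL27_pepL replicate 2 (adjusted p of up to 0.063), and the count ran from 0 to 5 over single omissions. Against plasmid control Isg15 rose by 0.49 ± 0.11 (adjusted p = 0.044) and Socs3, the feedback inhibitor of gp130, fell by 0.35 on the log2 scale (SE 0.08, adjusted p = 0.0438) in IL27_pepL. Both calls against plasmid control were lost in 7 of 9 single omissions and by limma-voom, which called 0 of the 18 there. None of 11 interferon genes, among them Ifnb1 and Ifng, had a row, so their expression is not known here.

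Most target genes of ISGF3 were higher in IL27_pepL than in IL27_scr, as were Stat2 and Irf9, which encode 2 of its subunits. All 32 listed targets were measured, and 25 of 32 rose between the IL-27 forms, where 2.52% of all genes were called. This and the other target lists were drawn up with earlier results of these data known. Their counts describe the listed genes and are not a test of the factors. The median log2 difference of the 32 was 0.58, beside 0.00365 for all genes. Isg15, the other inhibitor that rose and Dhx58 are among these targets, so their rises given above are counted again here. The leading genes were Phf11d at 0.83 ± 0.10 (adjusted p = 0.00208), the nucleotide kinase Cmpk2 at 0.67 ± 0.09 (adjusted p = 0.00304), the ADP-ribosyltransferase family member Parp9 at 0.42 ± 0.06 (adjusted p = 0.00304) and Ifit3b at 0.94 ± 0.13 (adjusted p = 0.00313). Ifit3b has a near-identical copy in Ifit3, and reads may have been split between them or dropped. The 7 that did not pass were Ifit2, Mx1, Oasl1, Dtx3l, Samd9l, Herc6 and Eif2ak2. The count fell to 12 without IL27_scr replicate 1, 16 without IL27_scr replicate 2 and 15 without IL27_pepL replicate 2.

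Against plasmid control, 7 of the 32 ISGF3 targets rose in IL27_pepL (median log2 difference 0.36), where 1.62% of all genes were called. In IL27_scr 0 of 32 passed by edgeR, DESeq2 or limma-voom. There 31 of the 32 lay below plasmid control, with a median of -0.22. In that comparison 17 had an unadjusted p under 0.05, as did 312 of the 12125 genes. Without plasmid control replicate 2, plasmid control replicate 3 or IL27_pepL replicate 2 the count in IL27_pepL was 0. It was 4 without plasmid control replicate 1 or IL27_scr replicate 2, 3 without IL27_scr replicate 3 and 19 without IL27_pepL replicate 1. By library, the median of the 32 targets relative to the plasmid control mean was 0.14, -0.10 and -0.02 in plasmid control, -0.29, -0.23 and -0.21 in IL27_scr and 0.24, 0.49 and 0.25 in IL27_pepL on the log2 scale. Irf7 on the same scale was 0.28, -0.23 and -0.05, then -0.47, -0.38 and -0.30, then 0.44, 0.83 and 0.74. Within plasmid control, replicate 1 was the highest and replicate 2 the lowest for both.

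**Figure D4:**
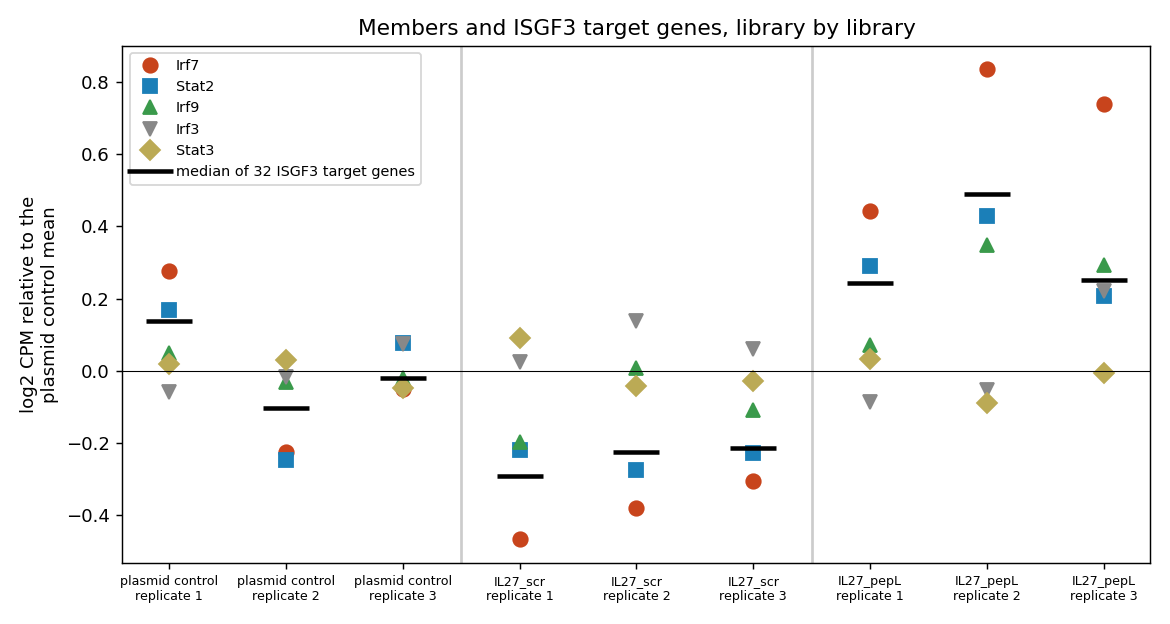
Log2 CPM of Irf7, Stat2, Irf9, Irf3 and Stat3 relative to the plasmid control mean in each of the 9 libraries, with the median of 32 ISGF3 target genes as black bars. The target median is below 0 in every IL27_scr library and above 0.2 in every IL27_pepL library, and Irf7 lies farther from 0 than the median in each of those 6 libraries.

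Of 20 IRF1 targets, also listed with earlier results known, 18 were measured (Casp1 and Ciita had no row). Between the IL-27 forms 9 of 18 rose, with a median log2 difference of 0.44, where 2.52% of all genes were called. Irf1 itself did not pass. Gbp3 rose by 0.74 ± 0.09 (adjusted p = 0.00139) and Gbp2 by 0.57 ± 0.08 (adjusted p = 0.00309), both interferon-induced GTPases of a family of similar copies. Tap1, the peptide transporter of antigen presentation, rose by 0.71 ± 0.10 (adjusted p = 0.00338) and the secreted glycoprotein gene Lgals3bp by 0.51 ± 0.08 (adjusted p = 0.00504). The count was 4 without IL27_scr replicate 1, IL27_scr replicate 2 or IL27_pepL replicate 2 and 6 without IL27_scr replicate 3. Against plasmid control 6 of 18 rose in IL27_pepL (median 0.29), where 1.62% of all genes were called. In IL27_scr 0 rose by edgeR, DESeq2 or limma-voom (median -0.09). There 4 had an unadjusted p under 0.05, as did 312 of the 12125 genes. The count of 6 became 0 without plasmid control replicate 2, plasmid control replicate 3 or IL27_pepL replicate 2, 3 without plasmid control replicate 1 or IL27_scr replicate 3, 4 without IL27_scr replicate 2 and 13 without IL27_pepL replicate 1. Several genes of the IRF1 and ISGF3 lists are known to answer to more than 1 of these factors.

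STAT3 targets were called in both directions. Of 21 measured of 24 listed, 0 rose and 2 fell between the IL-27 forms (median log2 difference -0.02), where 2.52% of all genes were called. In IL27_pepL against plasmid control 2 rose and 1 fell (median -0.01), where 1.62% of all genes were called. In IL27_scr 0 of 21 passed by edgeR, DESeq2 or limma-voom. There 3 had an unadjusted p under 0.05, as did 312 of the 12125 genes. Lif, a cytokine of the gp130 family, fell by 0.32 on the log2 scale (SE 0.06, adjusted p = 0.0146) and Myc fell by 0.26 (SE 0.06, adjusted p = 0.0491) between the IL-27 forms. The Lif call was lost in 3 of 9 single omissions (adjusted p of up to 0.0835). Myc lay just under the threshold and, added after its values were seen, was not followed over single omissions. Against plasmid control the acute-phase genes Lcn2 and Saa3 rose by 0.95 ± 0.18 and 1.00 ± 0.20 (adjusted p = 0.0205 and 0.0314), and Socs3 fell as given above. The Saa3 call was lost in 7 of 9 single omissions (adjusted p of up to 0.125) and the Lcn2 call in 2 (up to 0.122). Between the IL-27 forms neither Lcn2 nor Saa3 passed (adjusted p = 0.106 and 0.0763). The counts ranged from 0 to 8 against plasmid control and from 0 to 7 between the IL-27 forms when 1 library was left out, with the highest counts without IL27_pepL replicate 1. Of 14 STAT6 targets 7 had a row, and 0 of 7 passed in any comparison by edgeR, DESeq2 or limma-voom. Their medians were 0.000189, -0.02 and -0.10, and 2, 0 and 1 had an unadjusted p under 0.05, beside 312, 2784 and 2823 of all 12125 genes. Among them Mrc1, the mannose receptor, differed by -0.23 and Tgm2, a transglutaminase, by -0.05 between the IL-27 forms.

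**Figure D5:**
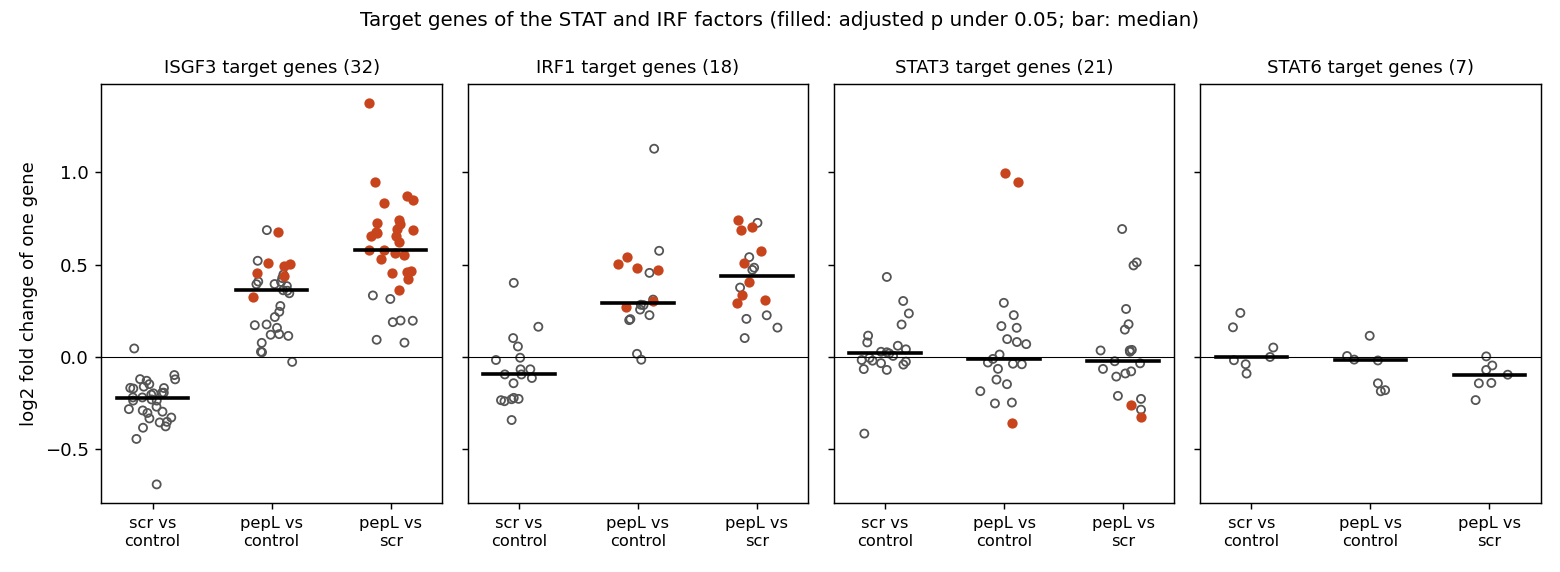
Log2 fold change of each measured target gene of ISGF3 (32), IRF1 (18), STAT3 (21) and STAT6 (7) in the 3 comparisons, filled where the adjusted p was under 0.05, with the median as a bar. The ISGF3 median goes from -0.22 to 0.36 and 0.58 and the IRF1 median from -0.09 to 0.29 and 0.44, while the STAT3 medians run from -0.02 to 0.02 and the STAT6 medians from -0.10 to 0.000189.

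Genes whose profile over the 9 libraries was most like that of each factor were found by Pearson's r of log2 CPM among 10919 genes, as a description over libraries that share groups and depth. Irf7 was most like Gbp3 (r = 0.989), Phf11d (0.981) and Mx2 (0.980). Stat2 was most like Rtp4 (0.984), Ifit1 (0.968) and Rsad2 (0.966), and Irf9 most like Isg15 (0.985), Ifi27 (0.975) and Bst2 (0.975). The nearest genes of these 3 factors are known as interferon-induced.

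The factors that did not pass had other neighbours. Stat3 was most like Mr1 (r = 0.965), Pcnxl3 (0.930) and Tspan14 (0.920), and Stat6 most like Rcn2 (0.965), Plcb3 (0.944) and Gpr149 (0.940). Irf1 was most like Tcf7 (0.927), Zfp28 (0.908) and Opn3 (0.906), and Irf3 most like Aptx (0.938), Trappc5 (0.934) and Nfkbia (0.912). With 10919 genes to choose from and 9 libraries, these are neighbours in these libraries only.

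Some technical and marker measures moved with the groups. Transgene Ebi3 had more counts in every IL27_pepL library (314 to 419) than in any IL27_scr library (266 to 269). Il27 counts overlapped between these groups (237 to 252 and 179 to 244), as did total counts. The part of the Ebi3 difference in the results was not tested. The ribosomal RNA precursor Rn45s took 1.21% to 1.49% of counts in plasmid control, 0.313% to 0.405% in IL27_scr, and 0.286% to 0.474% in IL27_pepL. With Rn45s removed, Irf7 against plasmid control was 0.66 on the log2 scale (adjusted p = 0.0201), as large as with it. Summed mesenchymal markers were 4350 to 4520 CPM in plasmid control, 4340 to 4420 in IL27_scr and 4600 to 5020 in IL27_pepL, with Vim the largest part. Of those 12 markers 1 passed between the IL-27 forms, where 2.52% of all genes were called. It was S100a4 at 0.55 ± 0.09 (log2, adjusted p = 0.00956, and 0.0532 with 1 library left out). The part of this marker shift in the results was not tested. Summed myeloid markers were 34.1 to 36.6, 36.4 to 38.4 and 36.7 to 41.0 CPM in the 3 groups, nearly all from Cd14 and Cd68.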

How the data were processed

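RNA-seq read counts per gene for 9 libraries were used as the authors deposited them, raw and not normalized. Per the submitters' processing notes, FastQC, STAR, featureCounts, Subread 1.6.1 and edgeR 3.22.5 were used with the mm10 build. The annotation, strand setting and treatment of multi-mapping reads are not stated in the sources used here and could change counts of overlapping or near-identical genes. Groups come from the labels.

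Counts were fitted in R 4.3.3 with edgeR 4.0.16 (TMM, quasi-likelihood test, group as the only term, all 9 libraries in 1 fit). P-values were adjusted by Benjamini-Hochberg over 12125 genes, with a call at an adjusted p under 0.05. The low-count filter removed 0 genes, so the deposited table may already have lacked genes with few reads. A gene without a row was not measured here, which is not the same as not expressed. A standard error is the log2 fold change divided by the square root of F, and intervals are 95%. The common biological coefficient of variation was 5.76%, and counts of the 7 genes ran from 395 to 3737. CPM values use TMM-scaled library sizes and, per kilobase, merged exons of protein-coding transcripts in the basic set of GENCODE vM21 (mm10). The longest transcript was taken from all transcripts of a gene, of any type. It is therefore longer than the merged exons for Irf7 (3240 against 2393 bases) and Irf9 (3869 against 3102). The procedure was also run on simulated counts that held known changes and no replicate structure. That run says nothing of the uneven spread between the IL27_pepL replicates.

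The 7 genes and all lists were chosen with earlier results of these data known. Named are the 7 genes, up to 4 called genes per list by smallest p (otherwise 2), and for each of the 7 genes the 3 most correlated genes whose mean reached 1 CPM, passing over predicted genes. Myc was added after its values were seen, as were the list members named as not passing and the genes named for shared exons. Some list genes, of which the rule names a pair, are not reported here by name. Alternatives were DESeq2 1.42.0, limma-voom (limma 3.58.1), other size factors and filters, a fit of only the groups compared, the replicate number as a term, removal of Rn45s, a length and GC offset, and omission of each library.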

Additional observations from a re-analysis of the deposited data

How the results depend on the processing

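Irf7 between IL27_pepL and IL27_scr was called in all 18 alternatives, with log2 values from 0.98 to 1.18 and adjusted p from 1.3e-13 to 0.014. Against plasmid control Irf7 was called in 14 of 18 and Stat2 between the IL-27 forms in 16 of 18. Irf9 between the IL-27 forms was called in 10 of 18, and a fit of only the groups compared ended its call (adjusted p = 0.0749) and that of Irf7 against plasmid control (0.058). Stat3, Stat6, Irf1 and Irf3 were called in 0 of 18 alternatives in each comparison. Against plasmid control, Irf9 and Stat2 passed with DESeq2 (adjusted p = 0.0436 and 0.0378) and without IL27_pepL replicate 1 (0.00503 and 0.0415). None of the changes of the 7 genes that were called reversed in these alternatives.

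Of the 7 genes, 1 was called in IL27_pepL against plasmid control; DESeq2 called 3, the fit of only the groups compared 0, and single omissions 0 to 3. Between the IL-27 forms 3 were called, and single omissions gave 1 to 3. Over all genes, 197 calls in IL27_pepL against plasmid control became 774 with DESeq2, 48 with only the groups compared and 36 to 2084 over single omissions, and 306 calls between the IL-27 forms became 811, 165 and 69 to 1782. The highest counts came without IL27_pepL replicate 1. With the replicate number as a block, 1019 and 1110 genes were called in these comparisons and 2 of the 7 genes (Irf7 and Irf9) against plasmid control, where Irf9 had an adjusted p of 0.0497. The labels do not say that a number marks a shared culture or day, so the libraries were not treated as paired in the main fit. Of 9 same-numbered pairs, 4 had correlated deviations above 0.1, which does not settle whether they were paired. Same-numbered correlations ran from -0.0599 to 0.318 and others from -0.235 to 0.13, and 4 of 9 libraries correlated best with their own number in both other groups, a hint from the data and not from the design. IL27_scr against plasmid control gave 2 to 4 calls over all genes and 0 among the 7 in every alternative.

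With 3 libraries per group, a value that did not pass is bounded only by its interval. The Irf9 call between the IL-27 forms was lost in 7 of 9 single omissions, while its log2 value stayed between 0.28 and 0.42.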
